A study of Bos taurus with 9 samples.

Results

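The genes described here are 10 genes of prostaglandin synthesis, transport and reception together with the oxytocin receptor, in cultured bovine endometrial cells (BEND). They were chosen by name, as the luteolytic pathway that interferon tau (IFNT) is known to restrain in ruminants, and all 10 were found among the 17162 genes of the expression table. The data came from RNA sequencing of 9 libraries in 3 groups of 3. CON cells were untreated, and GA cells received estradiol (E2, 1 nM) and progesterone (P4, 100 nM), with a listed treatment time of 12 h. GB cells received both hormones at these doses for 12 h, after which IFNT (100 ng/mL) was added for another 12 h. The cells were a primary culture from uteri of Holstein cows, purified by differential attachment over several passages. Collection times of CON and GA cells were not given separately, so that treatment and time in culture cannot be told apart. The comparison GA vs. CON asks what the hormones did, GB vs. GA what IFNT added, and GB vs. CON what the whole treatment did. On the listed times, GB vs. GA may also differ in the time of exposure.

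In the endometrium, phospholipase A2 frees arachidonic acid from membranes, the cyclooxygenases PTGS1 and PTGS2 turn it into prostaglandin H2, and terminal synthases turn that into prostaglandins such as E2 (PGE2) and F2α (PGF2α). In the cyclic ruminant, oxytocin acting on its receptor OXTR drives pulses of PGF2α that end the life of the corpus luteum. IFNT from the conceptus prevents those pulses, and PGE2 acts through its receptors to favour maintenance of the corpus luteum.

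Values are FPKM, the fragments of a gene scaled for its exon length and for the mapped fragments of the library, so that levels can be set beside each other between genes. The 9 libraries had FPKM sums of 1395622 to 1442723 and 14452 to 14893 genes above 0. The read depth of each library is not held in the expression table. The study does report totals of clean reads by group, which were not used here. The test was limma on log2(FPKM + 0.5), fitted to all 9 libraries at once. It covered the 12578 genes whose mean FPKM reached 0.5, with Benjamini-Hochberg adjustment over all of them. A DEG was a gene with an absolute log2 fold change (log2FC) above 1 and an adjusted p under 0.05. Of the 10 genes 7 passed the filter on low values, while PTGER4, SLCO2A1 and OXTR did not. The labels give replicate numbers and no animal or culture, so the p-values measure the spread between these libraries, which may be partly technical. In bulk RNA, fewer cells of a type and less RNA per cell cannot be told apart.

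The labels call the cells epithelial, and the study checked the culture by staining for cytokeratin protein, but the defining markers were near 0 at the level of RNA. Of 10 epithelial markers, 9 were in the table and none reached a mean of 1 FPKM, although none was at 0 in every library. Their highest value in any library was 0.7 FPKM, and KRT18 was below 1 FPKM in 9 of 9 libraries. All 10 stromal fibroblast markers were expressed, with means of 36.4 to 8539 FPKM, and their summed level ranged over 16829 to 17431 FPKM (CON), 17005 to 17403 FPKM (GA) and 15273 to 15381 FPKM (GB). Endothelial markers summed to between 1.68 and 3.58 FPKM (1 of 6 above 1), and the 4 immune markers in the table to between 20.8 and 26.7 (2 above 1). The stromal sum was carried most by VIM, at means of 9082 FPKM in CON, 8759 in GA and 7777 in GB. Single stromal markers went both ways, since in GB vs. CON 4 of 10 were lower and 1, PDGFRA, was higher (log2FC 0.38), and in GB vs. GA 5 were lower and 1 higher. In GA vs. CON 2 were higher, DCN (log2FC 0.39) and LUM (0.24), and 1 was lower, PDGFRB (−0.34). These counts are at an adjusted p under 0.05, where 33.5%, 29.0% and 0.453% of all tested genes were called, in the same order. The lower sum in GB moved with the comparisons below, and its part in them was not tested. The interferon response was present in GB, where 10 of 10 response genes were higher, with log2FC of 1.85 to 10.39 against CON and 1.87 to 10.34 against GA.

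Of the 10 genes, the 6 synthesis genes were abundant, while the 3 receptors and the transporter were low. PTGES3 had the highest mean over the 9 libraries (650 FPKM, higher than 97.8% of all genes), followed by PTGES (407 FPKM), PTGS2 (85.4 FPKM), PLA2G4A (80.2 FPKM), PTGS1 (62.9 FPKM) and PTGES2 (26.0 FPKM). PTGER2 followed at 0.991 FPKM, 26.3 times lower than PTGES2, and then came SLCO2A1 (0.350 FPKM), PTGER4 (0.317 FPKM) and OXTR (0.141 FPKM, higher than 18.5% of all genes). Some neighbours in this order did not differ beyond their spread, since PTGS2 was above PLA2G4A in 8 of 9 libraries, PLA2G4A above PTGS1 in 8 of 9, SLCO2A1 above PTGER4 in 6 of 9 and PTGER4 above OXTR in 8 of 9. Every other neighbouring pair kept its order in 9 of 9 libraries.

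**Figure D1:**
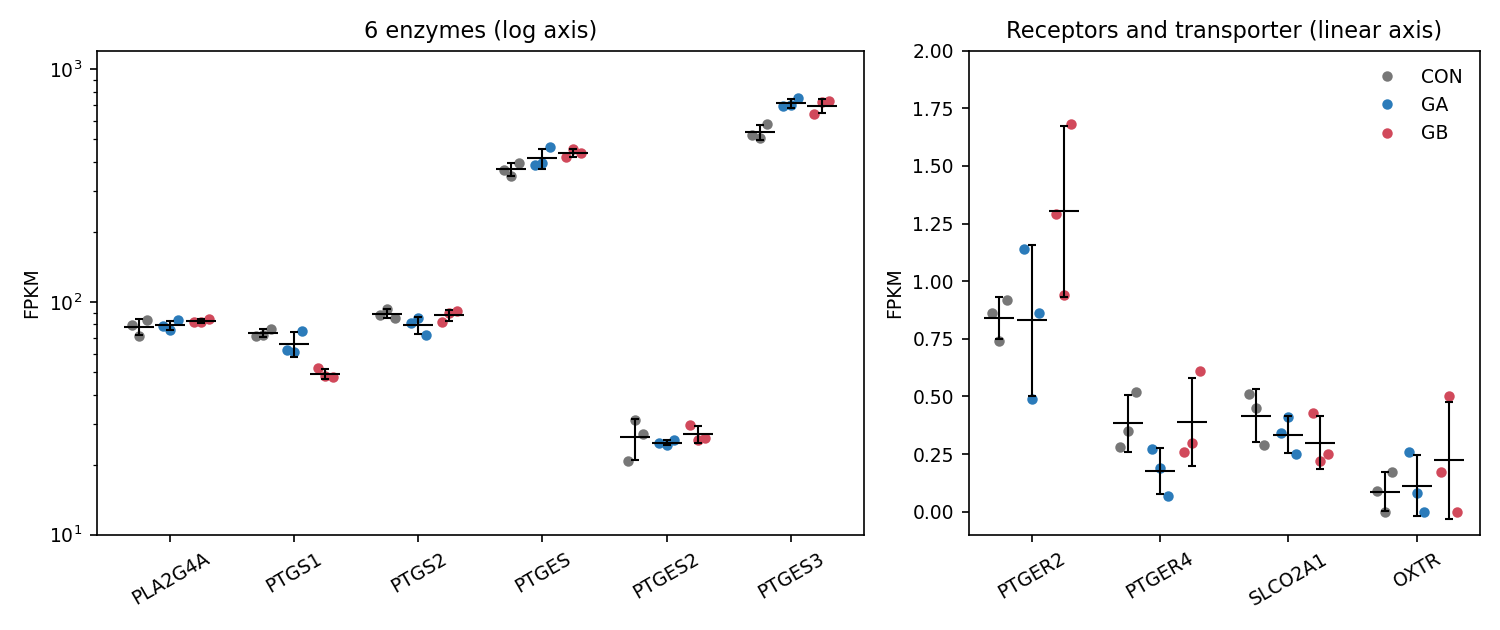
FPKM of the 10 genes in each of the 9 libraries, with the 6 enzymes on a log axis (left) and the receptors and transporter on a linear axis (right). Coloured points are libraries, black bars are the group mean and its SD (n = 3). PTGS1 in GB (47.7 to 51.9 FPKM) lies below all CON and GA libraries, while PTGES3 in GA and GB lies above all CON libraries.

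Of the 7 tested genes, PTGS1, PTGES and PTGES3 changed in at least 1 comparison, and none differed by as much as 2-fold. Comparing GB with CON, 3 of the 7 tested genes had an adjusted p under 0.05, PTGES and PTGES3 higher and PTGS1 lower, where 33.5% of all tested genes did. In GB vs. GA 1 of 7 did, PTGS1, lower, where 29.0% of all tested genes did. In GA vs. CON 1 of 7 did, PTGES3, higher, where 0.453% of all tested genes did. At an unadjusted p under 0.05 there were 3, 1 and 2 genes in the same order. The limma test called 0 of the 7 as DEGs in each comparison, where 4.01%, 3.64% and 0.0716% of all tested genes were DEGs. The moderated F test over the 3 groups passed for PTGS1 (adjusted p = 0.00160) and PTGES3 (adjusted p = 0.00213), as it did for 34.6% of all tested genes, and PTGES missed the threshold (adjusted p = 0.0694). The median log2FC of the 7 genes was 0.084 in GB vs. CON beside −0.016 over all genes. For GB vs. GA the medians were 0.085 and −0.075, and for GA vs. CON they were −0.039 and 0.061. The 3 comparisons share libraries and are not independent of each other.

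**Figure D2:**
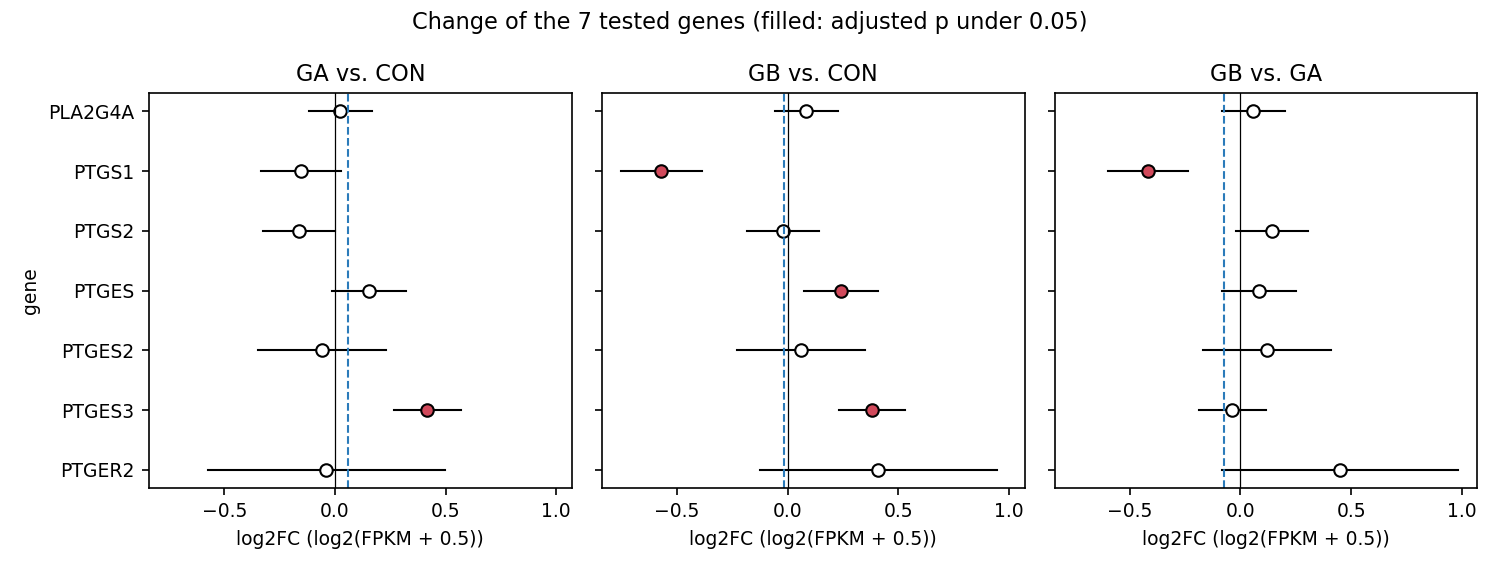
log2FC with 95% confidence interval (horizontal lines) of the 7 tested genes in the 3 comparisons, on the log2(FPKM + 0.5) scale. Filled points have a Benjamini-Hochberg adjusted p under 0.05 in limma, and the dashed line is the median over all 12578 tested genes; PTGS1 is the gene filled in GB vs. GA and PTGES3 the gene filled in GA vs. CON.

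PLA2G4A, the cytosolic phospholipase A2 that releases arachidonic acid, stayed within a narrow range. It was at 79.3, 71.4 and 84.0 FPKM in CON, at 79.2, 76.1 and 83.2 FPKM in GA and at 81.6, 82.4 and 84.3 FPKM in GB. The 3 groups overlapped. Its log2FC was 0.084 for GB against CON (95% CI −0.059 to 0.23, adjusted p = 0.341 by limma with Benjamini-Hochberg adjustment), 0.059 for GB against GA (−0.083 to 0.20) and 0.025 in GA vs. CON (−0.12 to 0.17). These intervals leave room for a change of GB against CON of between −3.97% and 16.9%. PLA2G4A and PTGS2 are neighbours on chromosome 16 with 0 coding genes between them in the RefSeq gene order (assembly ARS-UCD2.0).

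PTGS1, the cyclooxygenase usually described as constitutive, was the gene that fell in GB against both other groups. It was at 71.4, 71.8 and 76.7 FPKM in CON (73.3 ± 2.94, SD, n = 3) and at 61.9, 61.2 and 75.3 FPKM in GA (66.2 ± 7.96). In GB it was at 51.9, 48.1 and 47.6 FPKM (49.2 ± 2.35). All GB libraries were below all CON and all GA libraries, and 1 GA library lay within the CON range. Against GA, PTGS1 fell by 0.42 on the log2 scale (SE 0.081, 95% CI −0.60 to −0.24, adjusted p = 0.00457), which in mean FPKM was a change of −25.6%. Against CON it fell by 0.57 (SE 0.081, 95% CI −0.75 to −0.39, adjusted p = 0.000693), a change of −32.9%. In the ranking of all tested genes, 6.07% had a lower log2FC than PTGS1 against CON and 11% against GA, so that its fall was of a size shared by many genes. In GA vs. CON the difference was −0.15 (95% CI −0.34 to 0.030, adjusted p = 0.324). The call against GA held in 21 of 21 alternative settings of the analysis, with log2FC from −0.47 to −0.32, the smallest without GA replicate 3. The call against CON held in 20 of 21 and was lost with the replicate number and the read GC content together in the model (log2FC −0.49, adjusted p = 0.248).

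PTGS2, the inducible cyclooxygenase, differed less between the groups. It was at 88.2, 93.2 and 85.3 FPKM in CON (88.9 ± 4.02), at 81.1, 85.6 and 71.9 in GA (79.5 ± 6.99) and at 82.1, 89.2 and 91.6 in GB (87.6 ± 4.92). The groups overlapped in all 3 comparisons. In GB vs. CON the log2FC was −0.021 (95% CI −0.18 to 0.14, adjusted p = 0.850), which bounds a change to between −12.0% and 10.3%. In GB vs. GA it was 0.14 (95% CI −0.021 to 0.30, adjusted p = 0.179) and in GA vs. CON −0.16 (unadjusted p = 0.05, adjusted p = 0.259), neither of which passed.

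The balance of the 2 cyclooxygenases set the GB libraries apart. The share of PTGS2 in the summed FPKM of PTGS1 and PTGS2 was 55.3%, 56.5% and 52.6% in CON, 56.7%, 58.3% and 48.8% in GA and 61.3%, 65.0% and 65.8% in GB. All GB libraries were above all others, with group means of 54.8% ± 1.96, 54.6% ± 5.07 and 64.0% ± 2.41 (SD, n = 3). The 2-sided exact permutation p was 0.1 for GB against CON and against GA, the smallest that 3 against 3 allows, and 1 for GA against CON. The summed level itself was 162 ± 2.71 FPKM in CON, 146 ± 2.32 in GA and 137 ± 2.62 in GB (SD, n = 3). These 3 groups did not overlap, with an exact permutation p of 0.1 in each comparison. PTGES per unit of cyclooxygenase mRNA was 2.29 ± 0.170 in CON, 2.84 ± 0.253 in GA and 3.20 ± 0.10 in GB (SD, n = 3), also without overlap and with an exact permutation p of 0.1 in each comparison. The 2 quantities built on PTGES3 set CON apart, while GA and GB overlapped. PTGES to PTGES3 was 0.692 ± 0.0156 in CON, above all treated libraries (0.578 ± 0.0314 in GA, 0.628 ± 0.0254 in GB). The share of PTGES3 in the 3 PGE synthases was lower in CON than in all treated libraries. For both quantities the exact permutation p was 0.1 for each treated group against CON and 0.2 between the treated groups. The ratios PTGES to PTGES2 and PTGER2 to PTGER4 set no group apart. The exact permutation p in GB vs. CON, GB vs. GA and GA vs. CON was 0.7, 0.9 and 0.4 for PTGES to PTGES2. For PTGER2 to PTGER4 it was 0.2, 0.7 and 0.2. Over 24 such tests of 8 sums, shares and ratios, the smallest adjusted p was 0.171, so the design cannot pass 0.05 for any of them.

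**Figure D3:**
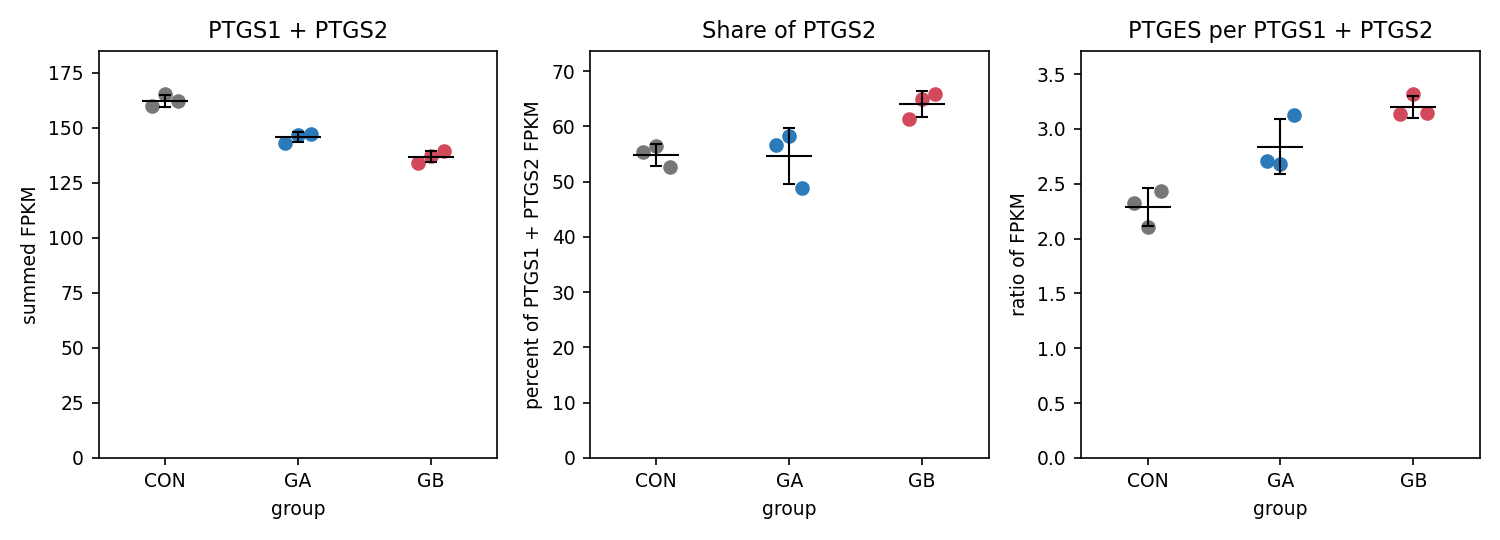
Summed FPKM of PTGS1 and PTGS2, the percent share of PTGS2 in that sum, and the ratio of PTGES to that sum, by group. Points are the 9 libraries, black bars the mean and SD (n = 3), and each axis starts at 0; the share of PTGS2 is 61.3% to 65.8% in GB and at most 58.3% elsewhere.

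PTGES, the inducible microsomal PGE synthase, was the second most abundant of the 10 genes. It was at 371, 347 and 395 FPKM in CON (371 ± 23.9), at 387, 394 and 461 in GA (414 ± 40.9) and at 421, 455 and 438 in GB (438 ± 17.2). All GB libraries were above all CON libraries, and GA overlapped both groups. Against CON, PTGES rose by a log2FC of 0.24 in GB (SE 0.074, 95% CI 0.074 to 0.41, adjusted p = 0.0327 by limma), an 18.1% higher mean. The differences GB vs. GA (log2FC 0.085, adjusted p = 0.430) and GA vs. CON (0.16, adjusted p = 0.280) did not pass. The call against CON held in 14 of 21 alternative settings. It was lost without CON replicate 1 or 2 (adjusted p = 0.071 and 0.0948), without GB replicate 2 or 3 (adjusted p = 0.102 and 0.0766) and with no variance trend (adjusted p = 0.0579). It was also lost with read GC content in the model (log2FC −0.021, adjusted p = 0.923) and with GC content and the replicate number together (log2FC 0.034, adjusted p = 0.923). Read GC content, as given in the supplement of the study, was higher in the 3 CON libraries than in all others, so that it cannot be fully told apart from the groups in a comparison with CON.

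PTGES2, a membrane-associated PGE synthase, showed no call. It was at 20.6, 31.0 and 27.0 FPKM in CON, at 24.7, 24.3 and 25.5 in GA and at 29.7, 25.6 and 25.9 in GB. CON spanned the range of GA and GB, although the GB libraries were all above those of GA. The log2FC of GB was 0.062 against CON (adjusted p = 0.747) and 0.12 against GA (95% CI −0.17 to 0.41, adjusted p = 0.521).

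PTGES3, the cytosolic PGE synthase that also serves as the HSP90 co-chaperone p23, rose in both treated groups. It was at 522, 506 and 580 FPKM in CON (536 ± 39.3), at 693, 703 and 751 in GA (715 ± 31.2) and at 643, 724 and 726 in GB (698 ± 47.1). All 6 treated libraries were above all 3 CON libraries, while GA and GB overlapped. In GA vs. CON the log2FC was 0.42 (SE 0.067, 95% CI 0.27 to 0.57, adjusted p = 0.0392), a 33.5% higher mean, and 96.2% of tested genes had a lower log2FC. In GB vs. CON it was 0.38 (SE 0.067, 95% CI 0.23 to 0.53, adjusted p = 0.00229), a 30.2% higher mean. The log2FC of GB against GA was −0.037 (95% CI −0.19 to 0.11, adjusted p = 0.714). The call in GA vs. CON held in 10 of 21 alternative settings and was lost, among others, with GC content in the model (log2FC 0.19, adjusted p = 0.641) and without any 1 of the 3 GA libraries (adjusted p of 0.112, 0.123 and 0.154), without CON replicate 1 or 2 (0.104 and 0.0959) or without GB replicate 2 (0.064). The call in GB vs. CON held in 19 of 21 and was lost in the 2 models with GC content (log2FC 0.14, adjusted p = 0.363, and 0.19, adjusted p = 0.323). PTGES3 made up 57.4% of the summed FPKM of the 3 PGE synthases in CON, 62.0% in GA and 60.0% in GB.

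**Figure D4:**
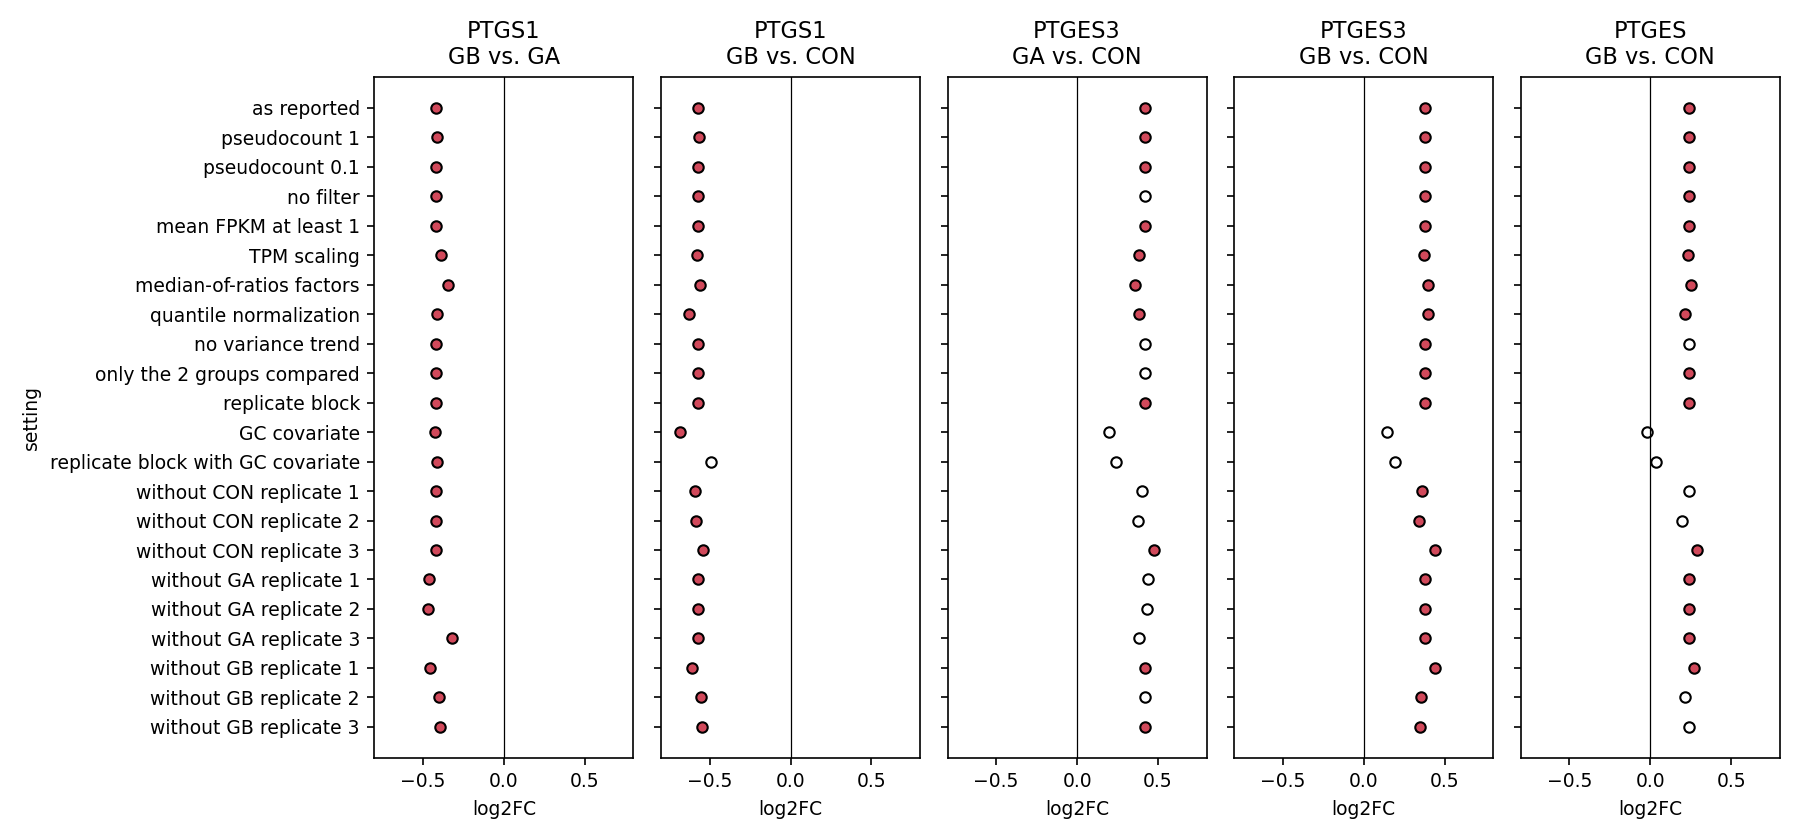
log2FC of PTGS1, PTGES3 and PTGES under each setting of the analysis (vertical), as reported and with 1 choice changed at a time, except for the setting that adds the replicate number and GC content together. Filled points have an adjusted p under 0.05; PTGS1 in GB vs. GA is filled in 21 of 21 alternative settings and PTGES3 in GA vs. CON in 10 of 21.

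SLCO2A1, the transporter that carries prostaglandins into cells, was close to the limit of detection. It was at 0.51, 0.45 and 0.29 FPKM in CON, at 0.34, 0.41 and 0.25 in GA and at 0.43, 0.22 and 0.25 in GB. The groups overlapped. Without the filter its log2FC was −0.20 for GB against CON, −0.064 for GB against GA and −0.13 for GA against CON.

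The PGE2 receptors PTGER2 and PTGER4, which both raise cyclic AMP, were low in every library. PTGER2 was at 0.86, 0.74 and 0.92 FPKM in CON, at 1.14, 0.49 and 0.86 in GA and at 1.29, 0.94 and 1.68 in GB. The GB libraries were above those of CON and overlapped those of GA, and log2FC was 0.41 against CON (95% CI −0.12 to 0.94, adjusted p = 0.215) and 0.45 against GA (95% CI −0.085 to 0.98, adjusted p = 0.192). Beside PTGS1, PTGES and PTGES3, PTGER2 was the fourth of 4 genes of the 7 without overlap between GB and CON, where 46.1% of all tested genes had none. Between GB and GA 2 of the 7 (PTGS1 and PTGES2) had no overlap, where 46.8% of all tested genes had none, and between GA and CON 1 (PTGES3), where 24.7% had none. PTGER4 was at 0.28, 0.35 and 0.52 FPKM in CON, at 0.27, 0.19 and 0.07 in GA and at 0.26, 0.30 and 0.61 in GB. The GA libraries were below all CON libraries, and in the fit without a filter the log2FC was −0.39 in GA vs. CON (adjusted p = 0.350) and 0.39 in GB vs. GA (adjusted p = 0.191). Neither passed, and values at this level rest on few reads.

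OXTR, the oxytocin receptor, was at 0.09, 0 and 0.17 FPKM in CON, at 0.26, 0.08 and 0 in GA and at 0.17, 0.50 and 0 in GB. Each group held 1 library at 0, and the groups overlapped. The values were whole multiples of a single step, to within 0.066 of a step, after scaling by the relative value of 1 read in each library (0.945 to 1.13, from 704 low genes). With 1 step taken as 1 fragment, OXTR rested on 1, 0 and 2 fragments in CON, on 3, 1 and 0 in GA and on 2, 5 and 0 in GB. The sums were 3, 4 and 7 fragments. The ratio of rates with its exact Poisson interval was 2.36 for GB against CON (95% CI 0.539 to 14.2), 1.72 for GB against GA (0.438 to 8.03) and 1.37 for GA against CON (0.232 to 9.35), where the intervals cover counting error and not the spread between libraries. A library at 0 allows up to 3 fragments, or 0.266 FPKM in CON, 0.296 FPKM in GA and 0.261 FPKM in GB. All 3 intervals include 1, so a change of OXTR within them was not detectable at this depth in either direction.

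The genes whose log2(FPKM + 0.5) followed PTGS1 most closely over the 9 libraries were LIMCH1 (Pearson's r = 0.986), TOM1 (0.985) and NAV3 (0.984). For PTGES3 they were TPT1 (0.985), SYPL1 (0.977) and HAUS2 (0.977). These are descriptions over libraries that share 3 groups, chosen as the highest values among all tested genes.

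Other genes of the pathway included larger differences. Of 96 listed genes in 6 lists, 80 were in the table and 52 were tested. In GB vs. CON 12 were higher and 16 lower at an adjusted p under 0.05, in GB vs. GA 11 were higher and 13 lower, and in GA vs. CON 0 were higher and 1 lower. Over all tested genes the shares called were 33.5%, 29.0% and 0.453%, in the same order. The calls present in each of the 21 alternative settings numbered 5 for GB against CON (ANXA1, PGR, IRF1, IRF2 and ALOX12), 16 for GB against GA and 0 for GA against CON.

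Around the release step, 3 genes were higher and 3 lower of 14 tested in GB vs. CON (33.5% called over all tested genes). ANXA1, annexin A1, known as an inhibitor of phospholipase A2, had 1735 ± 82.6 FPKM in CON and 1811 ± 28.2 in GA, and rose to 2950 ± 67.3 in GB (SD, n = 3; log2FC 0.77 and 0.70, adjusted p = 1.11e-06 and 2.19e-06 by limma). Among the other synthases, 1 was higher and 4 lower of 8 tested in GB vs. CON, with the same counts in GB vs. GA (33.5% and 29.0% over all tested genes). CBR3, a carbonyl reductase, rose to 35.4 ± 4.83 FPKM in GB from 17.8 ± 1.71 in CON and 19.7 ± 0.580 in GA (log2FC 0.97 and 0.82). GSTM3, a glutathione S-transferase, fell from 19.5 ± 3.63 FPKM in GA to 13.0 ± 1.17 in GB (log2FC −0.56, adjusted p = 0.0106). AKR1B1, the aldose reductase that acts as a PGF synthase in the bovine endometrium, was at 269 ± 22.4 FPKM in CON, 317 ± 17.1 in GA and 264 ± 12.0 in GB. It was lower in GB than in GA (log2FC −0.26, adjusted p = 0.0176) in the reported fit and in 17 of 21 alternatives, and its log2FC against CON was −0.021 (adjusted p = 0.840).

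Of transport and breakdown genes, 0 were higher and 3 lower of 6 tested in GB vs. CON, and 1 was lower in GB vs. GA (33.5% and 29.0% over all tested genes). HPGD, which inactivates prostaglandins, was at 20.7 ± 1.13 FPKM in CON, 16.0 ± 0.854 in GA and 14.9 ± 0.769 in GB. It fell in GB against CON (log2FC −0.46, adjusted p = 0.00101), while GA against CON did not pass (−0.36, adjusted p = 0.0628). GB against GA did not pass either (−0.095, adjusted p = 0.344 by limma). SLCO3A1, an organic anion transporter, was at 1.82 ± 0.147 FPKM in CON and fell to 1.08 ± 0.183 with the whole treatment (log2FC −0.56, adjusted p = 0.0221), a call held in 16 of 21 alternatives. The list of other prostanoid receptors also held PTGFRN, a regulator of the PGF2α receptor, and the nuclear receptors PPARA and PPARD. Of its 7 tested genes, 2 were higher and 2 lower in GB vs. CON, and 3 were higher and 1 lower in GB vs. GA (33.5% and 29.0% over all tested genes). PTGFRN was 1 of the 3 higher in GB vs. GA (log2FC 0.17, adjusted p = 0.0268 by limma), and PPARA was the 1 lower. PTGDR, a prostaglandin D2 receptor named after its values were seen, had the highest mean of the list, at 72.4 ± 3.04 FPKM in CON, 77.2 ± 5.66 in GA and 91.9 ± 4.29 in GB (SD, n = 3). It rose in GB against CON (log2FC 0.34, adjusted p = 0.00321) and against GA (log2FC 0.25, adjusted p = 0.0163). PTGDS, the prostaglandin D2 synthase of the synthase list, also named after its values were seen, went the other way. It was at 281 ± 25.7 FPKM in CON, 294 ± 10.9 in GA and 218 ± 10.4 in GB. Its log2FC in GB was −0.36 against CON and −0.43 against GA (adjusted p = 0.00327 and 0.00136 by limma). PTGIR, the prostacyclin receptor, was at 1.08 ± 0.386 FPKM in CON and 1.47 ± 0.422 in GA, and rose to 3.26 ± 0.497 in GB (log2FC 1.27 and 0.95, adjusted p = 0.00232 and 0.0120). PPARA, a nuclear receptor for fatty acids, was at 6.75 ± 0.487 FPKM in CON and 8.58 ± 1.01 in GA, and fell to 4.49 ± 0.383 in GB (log2FC −0.54 and −0.86), and PTGER1, another PGE2 receptor, was at 0.993 ± 0.127 FPKM in CON and fell to 0.437 ± 0.116 in GB (log2FC −0.68, adjusted p = 0.0402, held in 10 of 20 alternatives). PTGFR, the PGF2α receptor, had means of 0.467 FPKM in CON, 0.597 in GA and 0.263 in GB. PTGER3 reached at most 0.25 FPKM, and neither gene was tested.

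Of 14 tested genes of oxytocin signaling and its regulators, 6 were higher and 3 lower in GB vs. CON, and 5 were higher and 3 lower in GB vs. GA (33.5% and 29.0% over all tested genes). ESR1, the estrogen receptor, was at 8.14 ± 1.45 FPKM in CON, 8.08 ± 1.16 in GA and 7.28 ± 0.739 in GB. It passed in no comparison (log2FC −0.14 in GB vs. CON, adjusted p = 0.486, and −0.14 in GB vs. GA, adjusted p = 0.516). PGR, the progesterone receptor, was at 11.4 ± 0.278 FPKM in CON, 15.3 ± 1.17 in GA and 23.7 ± 1.93 in GB. It rose in GB against both (log2FC 1.03 and 0.61, adjusted p = 1.18e-05 and 0.000447). IRF1 and IRF2, transcription factors of the interferon response, rose in GB against CON by log2FC of 2.24 and 1.51, and against GA by 2.40 and 1.21. OXT, the gene for oxytocin, was at 0.73 FPKM in 1 CON library and listed at 0 in the other 8 libraries.

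**Figure D5:**
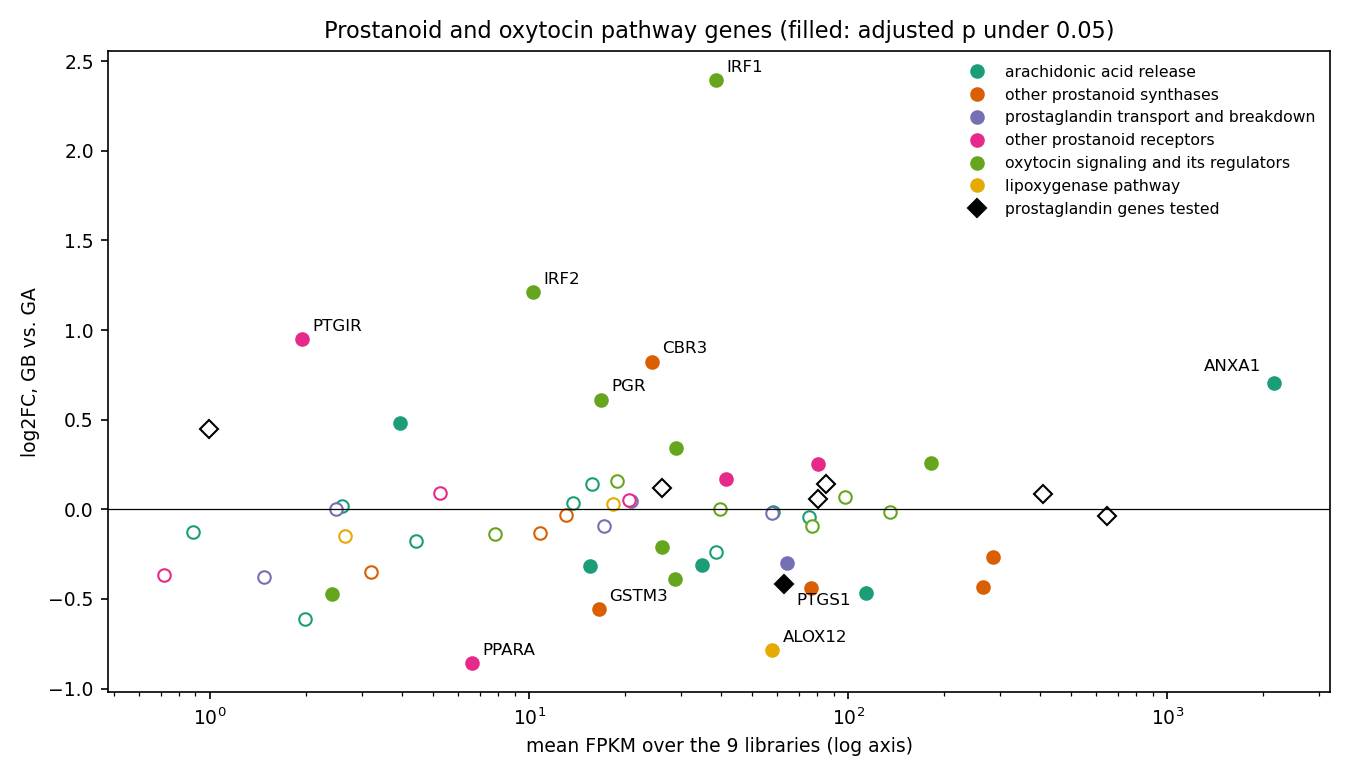
log2FC in GB vs. GA against mean FPKM over the 9 libraries (log axis) for the 52 tested genes of 6 pathway lists (coloured circles) and the 7 tested prostaglandin genes (black diamonds). Filled symbols have an adjusted p under 0.05; PTGS1 is the filled diamond at −0.42, and IRF1 is the highest point at 2.40.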

How the data were processed

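Poly-A RNA of 9 libraries was sequenced. The authors trimmed reads (fastp 0.21.0), removed rRNA reads (Bowtie2), aligned the rest with HISAT2 2.2.1 to ARS-UCD1.2 and quantified genes with RSEM 1.3.3. The deposited values are the authors' FPKM, to 2 decimals, in 1 column per library, and 0 columns could not be mapped to a sample. Whether counting used strand is not given in the sources used here. Deposited columns of gene descriptions were not used as measurements.

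Values were used as log2(FPKM + 0.5) in R 4.3.3 with limma 3.58.1 (a mean per group, variance trend), for genes whose mean FPKM reached 0.5. A fold change on this scale understates the change of low genes. Sums, shares and ratios were compared with 2-sided exact permutation tests. Plots came from matplotlib 3.10.9 (Python 3.11.15). The procedure was tested on simulated data. Alternatives were the pseudocount, the filter, scaling, the variance trend, the groups in the fit, the replicate number, read GC content from the supplement of the study, and each library left out. The 10 genes and all lists were chosen with earlier results of these data known. Genes named from the lists had an adjusted p under 0.05 and an absolute log2FC above 0.5 in a comparison, with at most 6 per list, together with PTGFR, PTGER3, AKR1B1, HPGD, ESR1, PGR, OXT and IRF2. Outside this rule, PTGDR, PTGDS, PTGFRN and FAM213B were named after their values were seen. For each of the 10 genes that passed the F test, the 3 genes with the highest Pearson's r were named.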

Additional observations from a re-analysis of the deposited data

How the results depend on the processing

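The count of 1 prostaglandin gene (PTGS1, lower) in GB vs. GA was kept in all 21 alternative settings, and no DEG appeared among them in any comparison or setting. Of 3 genes in GB vs. CON, 1 was left with GC content in the model and 0 with GC content and the replicate block, while leaving out single libraries gave 2 to 3. Among all tested genes, calls in GB vs. CON went from 4212 to 1472 with GC content and 514 with GC content and the replicate block. The F test passed for 1 gene with GC content, where the reported fit gave 2, and for 2 to 3 when single libraries were left out. The single gene in GA vs. CON became 0 with no filter, with no variance trend, with only the 2 groups compared, with GC content, and with GC content and the replicate block, and ranged from 0 to 1 when single libraries were left out. Calls among all tested genes in GA vs. CON were 57 in the reported fit. They were 34, 13, 46, 0 and 0 in the settings just named, in the same order. PTGES in GB vs. CON turned to −0.021 with GC content. Its call was also lost with GC content and the replicate block and with no variance trend. The same held without CON replicate 1 or 2 and without GB replicate 2 or 3 (log2FC of 0.19 to 0.29 over all libraries left out).

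For the pathway lists, the 28 genes in GB vs. CON became 11 with GC content and 5 with GC content and the replicate block (20 to 28 leaving out libraries). The same 2 models called 1472 and 514 of all 12578 tested genes, where the reported fit called 4212, so the loss was not particular to these lists. The 24 in GB vs. GA ranged from 18 to 25 when libraries were left out. With no filter they became 26, where 3441 of all 17162 genes were called. The single gene in GA vs. CON, ALOX12, became 2 genes under TPM scaling, median-of-ratios factors and quantile normalization, 0 with no variance trend, only the 2 groups compared, the replicate block, GC content, or both together, and 0 to 1 leaving out libraries. Both models with GC content called 0 of all tested genes in that comparison. The causes were not tested.

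Deviations of samples with the same replicate number were weakly related (r of −0.031 to 0.077 over 9 pairs, against −0.068 to 0.056 over 18 pairs with different numbers, with 0 pairs above 0.1), so the numbers were not taken as pairs. As a weak hint from the data and not the design, 6 of 9 libraries correlated best with a library of their own number, where 2 of 6 candidates for each library share it. These best matches are not independent of each other, and some were near ties. CON2 had an r of 0.0080 with GA2 and of 0.0073 with GA1. With the replicate block alone, 3, 1 and 1 prostaglandin genes passed in GB vs. CON, GB vs. GA and GA vs. CON, and 25, 23 and 0 pathway genes. Scaling moved the split of higher against lower calls over all genes in GB vs. GA from 34.0% higher to 52.9% with median-of-ratios factors, and in GA vs. CON from 54.4% to 27%. Precision is limited by 3 libraries per group, and for PTGER4, SLCO2A1 and OXTR by few reads.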

Other observations

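The lipoxygenases compete with the cyclooxygenases for arachidonic acid, and 3 of 10 listed genes of that pathway were tested. ALOX12, arachidonate 12-lipoxygenase, was at 74.7, 83.0 and 85.5 FPKM in CON, at 55.4, 57.8 and 62.7 in GA and at 35.2, 33.7 and 32.4 in GB. The 3 groups did not overlap. It was lower in GA than in CON (log2FC −0.46, adjusted p = 0.0327) and in GB than in GA (log2FC −0.79, adjusted p = 3.24e-05 by limma), and against CON it was lower in GB by a log2FC of −1.25 (adjusted p = 9.80e-07). It was the single pathway gene to pass in GA vs. CON, which held in 8 of 21 alternative settings, and the other 2 tested genes of the list passed in no comparison.

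LOC782922 and LOC506594, described in the table as PGF synthases and looked up after the values had been seen, were at or below 0.13 FPKM. They were above 0 in 1 and 2 libraries. FAM213B, a prostaglandin F synthase of the synthase list, also named after its values were seen, was expressed. It was at 81.8 ± 7.44 FPKM in CON, 85.0 ± 4.67 in GA and 62.4 ± 2.19 in GB (SD, n = 3). Its log2FC in GB was −0.38 against CON and −0.44 against GA (adjusted p = 0.00280 and 0.00151 by limma). These calls held in 20 and 21 of 21 alternative settings.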
